A study of Mus musculus with 37 samples.

Results

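The 10 genes described are parts of the Notch signalling pathway: the receptors Notch1, Notch2, Notch3 and Notch4, the ligands Jag1 and Jag2, the DNA-binding partner Rbpj, the target genes Hes1 and Hey1, and Dtx4, which encodes an E3 ubiquitin ligase of the Deltex family. They were chosen by gene name from 23170 genes listed in a count table and a TPM table (TPM is an abundance scaled for transcript length), and their values were read in all 12 RNA-seq libraries. The cells were macrophages grown from mouse bone marrow, labelled knockout (KO) for Arid1a or wild type (WT), and RNA was taken at days 0, 2 and 4 of osteoclastic differentiation, so that the groups are KO and WT at each day. Osteoclasts are the multinucleated cells that resorb bone, and they form from macrophage precursors. Arid1a encodes a DNA-binding member of the BAF complex, which moves nucleosomes. The labels give KO and WT for the genotypes and do not say how or in which cells Arid1a was deleted, nor the strain or age of the mice. Each of the 6 groups held 2 libraries, and no label says that these are separate mice or cultures, so the p-values measure only the spread between libraries, which may be technical. A further 12 ATAC-seq and 13 CUT&Tag samples were not used here.

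Notch receptors sit in the cell membrane and are activated by ligands of the Jagged and Delta families on a neighbouring cell. Binding leads to cleavage of the receptor, first by an ADAM protease and then by the gamma-secretase complex, and the released intracellular domain enters the nucleus, where it joins Rbpj and the Mastermind-like co-activators at target genes. Hes1 and Hey1 encode repressors of transcription that are known targets of the pathway. In osteoclast precursors the pathway has been reported both to restrain and to promote differentiation, and the outcome has been tied to which receptor is engaged.

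Totals ran from about 16282200 to 18608400 counts per library. Levels below are in CPM (counts scaled to a common library size with TMM factors) within a gene, and in TPM where genes are compared with each other. Of the listed genes, 12774 passed a filter on low counts and were tested with edgeR's quasi-likelihood test, the 10 Notch genes among them. A log2 fold change is given ± SE, and a gene was called when its p, adjusted over all tested genes by the Benjamini-Hochberg method, was under 0.05. Arid1a itself lay between 84.7 and 118 CPM in KO libraries, against 135 to 242 CPM in WT libraries. Its KO libraries lay below its WT libraries at every day, and it was called lower at day 0 (log2 fold change -1.15 ± 0.14) and day 4 (-0.71 ± 0.14) but not at day 2 (-0.54 ± 0.14, adjusted p = 0.0613). A count over the whole gene does not show whether an exon was deleted. Csf1r, the receptor for the macrophage growth factor, was present in all 12 libraries at 409 to 3125 TPM. Lyz2, the macrophage lysozyme gene, was at 55.5 to 134 TPM in KO libraries, against 1199 to 59431 TPM in WT libraries. Most other macrophage markers went the other way at day 4, where 7 of 10 were called higher in KO and 1 lower (median log2 fold change 3.15), against 14.5% and 11.1% of all tested genes. Adgre1, which encodes F4/80, was then at 509.8 and 1306 TPM in KO, against 56.0 and 51.5 TPM in WT. At each of days 0 and 2 none of the 10 was called higher and 1 was called lower. The summed level of 10 osteoclast markers at day 4 was 5200 and 1299 TPM in the KO libraries, against 16674 and 21329 TPM in the WT libraries. The KO libraries of day 4 were the least alike of any group, with 1576 tested genes over 2-fold apart, against 271 between the WT libraries of that day. The WT libraries of day 0 were nearly as unlike, with 1457 such genes, and the KO libraries of day 2 had 1062. The WT libraries of day 4 were the most alike of any group. In bulk RNA, fewer cells of a type and less RNA per cell cannot be told apart.

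The largest called difference between genotypes among the 10 genes was in Jag2, which was higher in KO than in WT at each of the 3 days by 7.43-fold to 13.4-fold. Notch1 was higher in KO at day 2 (1.57-fold) and day 4 (1.49-fold), and Dtx4 was lower in KO at day 4 (1.85-fold). At day 0, 1 of the 10 genes was called higher in KO and none lower, where 1.58% of all tested genes were called (0.767% higher, 0.814% lower). At day 2, 2 were called higher and none lower, against 4.52% of all tested genes (3.09% higher, 1.42% lower). At day 4, 2 were called higher and 1 lower, and 25.6% of all tested genes were called (14.5% higher, 11.1% lower), so the share among the Notch genes was near that of all genes. With any 1 library of the comparison left out, none of the calls at days 0 and 2 held throughout, and at day 4 that of Jag2 did. In a fit of the 4 libraries of day 4 alone, none of the 3 was called, but that fit called only 5 of all tested genes.

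**Figure D1:**
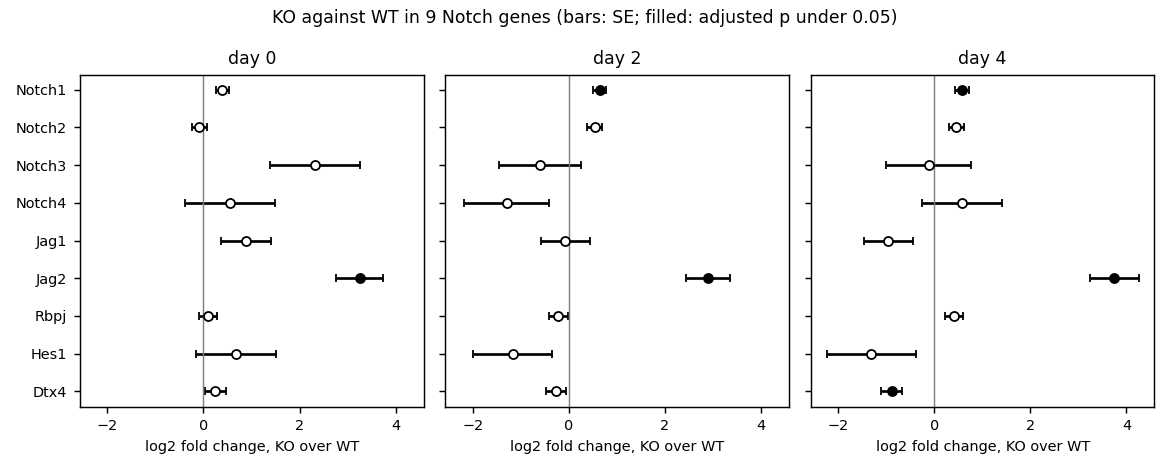
Log2 fold change of KO over WT (x axis) for 9 of the 10 Notch genes (rows) at days 0, 2 and 4, from the edgeR fit; bars are the SE and filled points have an adjusted p under 0.05. Jag2 stands at 3.25, 2.89 and 3.74 at the 3 days, while the other genes lie nearer to 0; Hey1 is left out because its counts are at or near 0.

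Over time, both main receptors fell in both genotypes. In KO cells no Notch gene was called at day 2 against day 0 with edgeR (1 of 10 had an unadjusted p under 0.05, and DESeq2 and limma-voom called none), where 4.74% of all tested genes were called (3.01% higher, 1.73% lower). At day 4 against day 0 in KO cells, 2 were called higher and 3 lower, with 44.6% of all tested genes called (23.3% higher, 21.3% lower). At day 4 against day 2 in KO cells, 1 was called higher and 5 lower, against 42.7% of all tested genes (22.1% higher, 20.6% lower). In WT cells, 2 were called higher and 2 lower at day 2 against day 0, where the share over all tested genes was 17.3% (8.06% higher, 9.25% lower). At day 4 against day 0 in WT cells, 3 were called higher and 2 lower, against 56.8% of all tested genes (29.1% higher, 27.6% lower). None was called higher and 4 were called lower at day 4 against day 2 in WT cells, against 51.8% of all tested genes (27.4% higher, 24.4% lower). These shares over all genes are large, so a call in a time comparison is common and the size of the change carries more than the count. The comparisons within a genotype share their libraries, as do the comparisons of KO with WT, so their calls are not independent of each other.

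**Figure D2:**
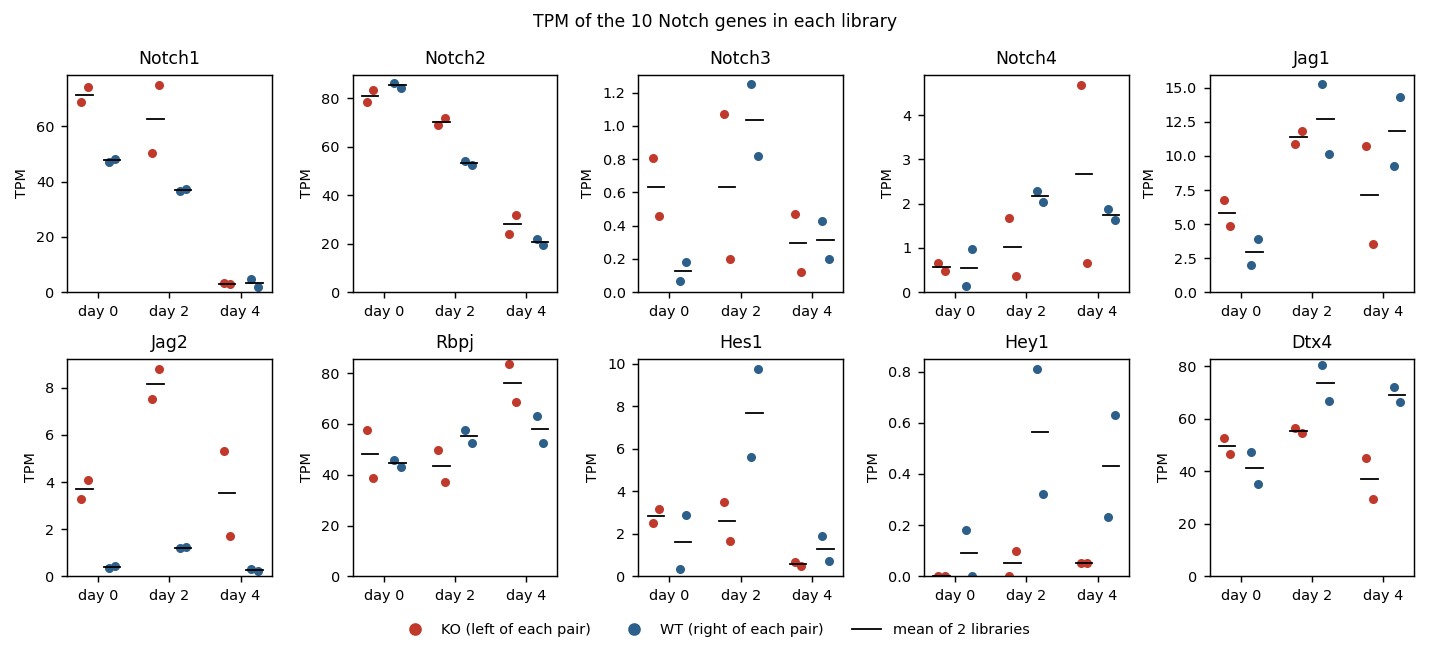
TPM (y axis, a scale of its own for each gene) of the 10 Notch genes in each of the 12 libraries at days 0, 2 and 4 (x axis); red points are KO and blue points WT, and the line is the mean of 2 libraries. Notch1 and Notch2 are low at day 4 in both genotypes, and the KO points of Jag2 lie above the WT points at each day.

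Among the receptors, Notch2 and Notch1 made up most of the receptor RNA. On the TPM scale Notch2 averaged 56.4 over the 12 libraries, Notch1 37.6, Notch4 1.46 and Notch3 0.507. Notch2 held 48.7% to 89.7% of the summed TPM of the 4 receptors in any library. The share of Notch1 was 8.06% to 50.9% in KO libraries and 8.45% to 40.3% in WT libraries, with its low end at day 4 in both.

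Notch1 levels in KO cells were 371 and 363 CPM at day 0, 275 and 353 CPM at day 2, and 17.6 and 15.5 CPM at day 4. In WT cells they were 285 and 273 CPM at day 0, 200 and 200 CPM at day 2, and 11.9 and 10.4 CPM at day 4. Both KO libraries were higher than both WT libraries at each day, and all 4 libraries of day 4 lay far below the others. Notch1 fell to day 4 from day 0 by 4.47 ± 0.16 on the log2 scale in KO (adjusted p = 2.13e-06 with edgeR), a 22.1-fold change. It fell by 4.65 ± 0.16 in WT (adjusted p = 1.54e-06), a 25.1-fold change. By day 2 the change was -0.23 ± 0.13 in KO (adjusted p = 0.386) and -0.48 ± 0.13 in WT (adjusted p = 0.0414, lost with any 1 library left out). Most of the fall came after day 2, with a log2 fold change from day 2 to day 4 of -4.24 in KO and -4.17 in WT, and both calls held with any 1 library left out. The change from day 0 to day 4 in KO minus that in WT was 0.18 ± 0.19 (adjusted p = 0.605).

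Set against WT, KO had a Notch1 log2 fold change of 0.39 ± 0.13 at day 0 (adjusted p = 0.206 with edgeR). The value was 0.65 ± 0.13 at day 2 (adjusted p = 0.0374), and for day 4 it was 0.57 ± 0.14 (adjusted p = 0.0189). The day 2 call was lost without KO replicate 2 (adjusted p = 0.243), WT replicate 1 (0.177) or WT replicate 2 (0.195), and the day 4 call without KO replicate 1 (0.0518) or WT replicate 2 (0.136). On the log2(TPM + 1) scale the day 4 difference was -0.012, and the deposited TPM were 3.42 and 2.86 in KO, against 4.84 and 1.97 in WT, so its direction depends on the unit.

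Notch2 followed the same course with a smaller range. In KO cells it was at 500 and 557 CPM at day 0, 445 and 491 CPM at day 2, and 140 and 194 CPM at day 4. In WT cells it was at 585 and 537 CPM at day 0, 330 and 315 CPM at day 2, and 127 and 116 CPM at day 4. The genotypes overlapped at day 0, and at days 2 and 4 the KO values were the higher ones with no overlap. Notch2 fell by day 4, against day 0, by 1.66 ± 0.16 (log2) in KO (adjusted p = 0.000131) and by 2.21 ± 0.16 in WT (adjusted p = 1.75e-05), with edgeR. In WT cells it had already fallen by day 2, by 0.80 ± 0.16 (adjusted p = 0.0126, and 0.0688 or 0.0853 without WT day 2 replicate 1 or 2), and in KO cells the day 2 change was -0.18 ± 0.16 (adjusted p = 0.597). The difference between these day 2 changes, KO minus WT, was 0.62 ± 0.22 with an unadjusted p of 0.0206 and an adjusted p of 0.493, and at day 4 it was 0.54 ± 0.22 (adjusted p = 0.159). KO over WT was -0.09 ± 0.16 at day 0, 0.54 ± 0.16 at day 2 (adjusted p = 0.0848) and 0.46 ± 0.16 at day 4 (adjusted p = 0.0618), none of them called. With KO day 4 replicate 1 left out, KO over WT at day 4 was 0.68 (adjusted p = 0.00427), and the difference in change to day 4 was 0.76 (adjusted p = 0.0133). DESeq2 called Notch2 higher in KO at days 2 and 4 (adjusted p = 0.0314 and 0.0341).

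Since Notch1 and Notch2 both fell to day 4, the 250 bases before their annotated starts are shown, from RefSeq on GRCm38.p6 and 5′ to 3′ on the strand of the gene. Notch1 lies at chr2:26503823-26504072 on the minus strand and Notch2 at chr3:98013288-98013537 on the plus strand. Capitals mark matches, on either strand, to CACNAG, the N-box that Hes repressors are known to bind.
Notch1: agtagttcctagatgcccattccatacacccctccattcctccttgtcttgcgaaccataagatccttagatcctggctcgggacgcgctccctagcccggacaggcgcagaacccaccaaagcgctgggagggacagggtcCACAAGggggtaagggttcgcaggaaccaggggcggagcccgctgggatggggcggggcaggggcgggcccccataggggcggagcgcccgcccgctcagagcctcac
Notch2: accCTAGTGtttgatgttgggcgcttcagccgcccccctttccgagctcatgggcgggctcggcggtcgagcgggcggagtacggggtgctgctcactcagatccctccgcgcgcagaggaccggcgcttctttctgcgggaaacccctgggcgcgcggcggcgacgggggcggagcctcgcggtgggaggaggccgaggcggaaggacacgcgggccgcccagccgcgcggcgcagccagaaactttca
Each window holds 1 such match, at -108 to -103 of the start in Notch1 and at -247 to -242, on the opposite strand, in Notch2. The N-box letters occur in 36.7% of the 32851 promoters of that table, so a match is common, and the Notch3 window held 2. GC content was 66% in the Notch1 window and 72% in the Notch2 window, against a median of 52.4% over all promoters. Promoters of 7 of the 10 genes were in the table, and none of these 7 held the AP-1 letters TGANTCA (6.75% of all promoters) or the E-box CACGTG (6.02%). The Rbpj core TGGGAA, found in 21.6% of all promoters, was found among the 7 in the windows of Rbpj alone. It lay at -149 to -144 and, on the opposite strand, at -65 to -60 of the first of the 2 starts searched for Rbpj. These 2 starts lie 34567 and 34707 bases inside the annotated span of the gene, and the bases before the edge of that span were not searched. The Jag2 window had a GC content of 87.2%, and its start lies 317 bases inside the annotated span of that gene. No match says only that these letters are not in these windows.

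Notch3, a receptor best known from vascular smooth muscle and pericytes, was at low counts throughout. Its counts in KO were 66 and 36 at day 0, 84 and 15 at day 2, and 40 and 10 at day 4. Its counts in WT were 6 and 16 at day 0, 105 and 62 at day 2, and 37 and 18 at day 4. The KO libraries were higher than the WT libraries at day 0, the genotypes overlapped at days 2 and 4, and edgeR called it in no comparison. KO over WT at day 0 was 2.32 ± 0.93 on the log2 scale (adjusted p = 0.295 with edgeR). Nearest to a call was WT day 2 over WT day 0, at 2.94 ± 0.94 (adjusted p = 0.0621), which DESeq2 called (adjusted p = 0.0103), as did edgeR with replicate numbers as a block within each genotype, chosen after seeing the data. The summed TPM of 10 stromal markers, led by Col1a1 and Col1a2, ran in each KO group in the same order as Notch3, with the higher sum and the higher Notch3 in replicate 1. At day 0 that sum was 1076 and 475 TPM in KO, against 82.2 and 870 TPM in WT, and the WT library with the lower sum had the lower Notch3. At days 2 and 4 in WT the order of the sum was opposite to that of Notch3, as was that of Col1a1, Col1a2, Dcn, Cxcl12 and Postn. Col3a1, Thy1 and Pdgfra of that list ran in the order of Notch3 at these days, and Pdgfrb did so at day 2 alone. Col1a1 was at 516 and 716 TPM in WT at day 2 and at 97.5 and 116 TPM at day 4. Col3a1 was at 203 and 111 TPM in WT at day 2 and at 35.8 and 21.6 TPM at day 4, and Thy1 at 50.7 and 9.02 TPM and at 8.65 and 0.72 TPM. The summed TPM of the smooth muscle markers, 8 listed with Acta2 leading, ranged from 371 to 1088 in KO and from 150 to 1242 in WT at day 0. That sum ran opposite to Notch3 in WT at days 2 and 4. Acta2 was then at 1548 and 1907 TPM and at 95.9 and 154 TPM, while Cspg4, Des and Rgs5 ran in the order of Notch3. Of the 10 stromal markers 8 were over 1 TPM in some library of the KO day 0 group, and Dcn and Lum were at or near 0. The part of such cells in the Notch3 values was not tested.

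Notch4, a receptor best known from endothelium, was low at day 0. Its counts in KO were 28 and 14 at day 0, 34 and 22 at day 2, and 299 and 28 at day 4. Its counts in WT were 9 and 22 at day 0, 73 and 81 at day 2, and 121 and 99 at day 4. In WT the day 4 libraries lay above the day 0 libraries, while in KO replicate 1 alone was high at day 4. Notch4 was called higher at day 4 than at day 0 in WT (log2 fold change 2.69 ± 0.93, adjusted p = 0.0349 with edgeR). That call was lost with any 1 of the 4 libraries left out (adjusted p from 0.0638 to 0.163). In KO the log2 fold change was 2.71 ± 0.91 (adjusted p = 0.0399), lost also without KO day 0 replicate 1 (0.102) or 2 (0.184), and without KO day 4 replicate 1 it was 0.27 (adjusted p = 0.749), so 1 library decides it. On the log2(TPM + 1) scale the values were 0.97 in KO and 0.88 in WT, neither called. KO over WT at day 4 was 0.58 ± 0.84, and without that library it was -1.86. Of the endothelial markers, Cdh5 stayed under 0.6 TPM in all libraries and Emcn and Sox17 were at 0 in both KO day 4 libraries. Esam, Tek, Tie1, Erg and Cldn5 were at most 1.01 TPM in any library. Pecam1 was at 2.45 to 7.68 TPM in the libraries of days 0 and 2 and at 0 to 0.29 TPM in those of day 4. Kdr was at 32.6 and 215 TPM in KO at day 4, against 1.97 and 2.77 TPM in WT, and the library with the higher Kdr was the one with the lower Notch4. The part of such cells in the Notch4 values was not tested.

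Of the ligands, Jag2 carried the difference between genotypes. In KO it was at 7.77 and 10.1 CPM at day 0, 18.1 and 22.4 CPM at day 2, and 11.4 and 3.88 CPM at day 4. In WT it was at 0.814 and 1.05 CPM at day 0, 2.66 and 2.77 CPM at day 2, and 0.618 and 0.513 CPM at day 4. All 6 KO libraries lay above all 6 WT libraries, whatever the day, and the lowest KO library was the second of day 4. These are low levels, from 70 to 328 counts in a KO library and from 10 to 48 counts in a WT library. KO over WT was 3.25 ± 0.49 on the log2 scale at day 0 (adjusted p = 0.024 with edgeR). It came to 2.89 ± 0.46 at day 2 (adjusted p = 0.0218), and the day 4 value was 3.74 ± 0.51 (adjusted p = 0.00186). As folds these are 9.51, 7.43 and 13.4. On the log2(TPM + 1) scale, which shrinks low levels, the log2 fold changes were 1.75, 2.05 and 1.72, all called. The day 4 call was lost in a fit of the 4 libraries of that day alone (adjusted p = 0.0649), and the day 0 call in such a fit and with limma-voom (adjusted p = 0.0967). Fits of the compared libraries alone called only 5 of all tested genes at day 4 and 25 at day 0.

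With any 1 library left out, the log2 fold change of Jag2 was 3.04 to 3.45 at day 0 and 2.73 to 3.04 at day 2. At day 4 it was 2.77 without KO replicate 1 and 4.32 without KO replicate 2. The calls were less firm. At day 0 and at day 2 the call was lost with any 1 of the 4 libraries left out (adjusted p from 0.0546 to 0.169 at day 0 and from 0.0504 to 0.154 at day 2), and at day 4 it held in each case (from 0.000222 to 0.0278).

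No change of the Jag2 difference with time was called. KO change minus WT change was -0.36 ± 0.64 to day 2 (adjusted p = 0.829) and 0.49 ± 0.68 to day 4 (adjusted p = 0.696). Within a genotype the day 2 libraries had the highest Jag2. From day 2 to day 4 it fell by 1.40 ± 0.43 (log2) in KO (adjusted p = 0.0301) and by 2.25 ± 0.51 in WT (adjusted p = 0.00615). The KO call was lost without KO day 2 replicate 1 (adjusted p = 0.0651), KO day 2 replicate 2 (0.121) or KO day 4 replicate 2 (0.0557), and the WT call held in each such case but was lost with limma-voom (adjusted p = 0.0898) and on the log2(TPM + 1) scale. Ordered by mean, Jag2 was at 0.565 ± 0.074 CPM in WT at day 4, 0.932 ± 0.166 in WT at day 0, 2.72 ± 0.07 in WT at day 2, 7.65 ± 5.33 in KO at day 4, 8.94 ± 1.65 in KO at day 0 and 20.2 ± 3.05 in KO at day 2 (SD, n = 2 each). Among neighbours in that order, WT day 4 over day 0 was -0.72 ± 0.53 and WT day 2 over day 0 was 1.53 ± 0.49 (adjusted p = 0.0603), on the log2 scale. KO day 4 over day 0 was -0.22 ± 0.43 and KO day 2 over day 0 was 1.18 ± 0.43 (adjusted p = 0.17). None of these 4 was called by edgeR over all 12 libraries. DESeq2 called WT day 2 over day 0 (adjusted p = 0.0272) and edgeR on the compared libraries alone called KO day 2 over day 0 (adjusted p = 0.0472). WT day 2 against KO day 4 was not tested.

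The mean of the stromal sum, like that of Jag2, was highest at day 2 and lowest at day 4 within each genotype. Between genotypes at day 2, the sum was 1436 and 367 TPM in KO, where Jag2 was at 18.1 and 22.4 CPM, against 1421 and 1875 TPM in WT, where Jag2 was at 2.66 and 2.77 CPM. At day 4 the KO library with the lower sum (8.84 TPM) had the lower Jag2, while at days 0 and 2 the KO library with the lower sum had the higher Jag2. In WT the library with the lower sum had the lower Jag2 at days 0 and 2 and the higher Jag2 at day 4. The part of stromal cells in the Jag2 values was not tested. Nudt14, the gene listed beside Jag2 in RefSeq, was not called between genotypes at any day, with log2 fold changes of 0.00 ± 0.23, 0.37 ± 0.23 and 0.20 ± 0.23.

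**Figure D3:**
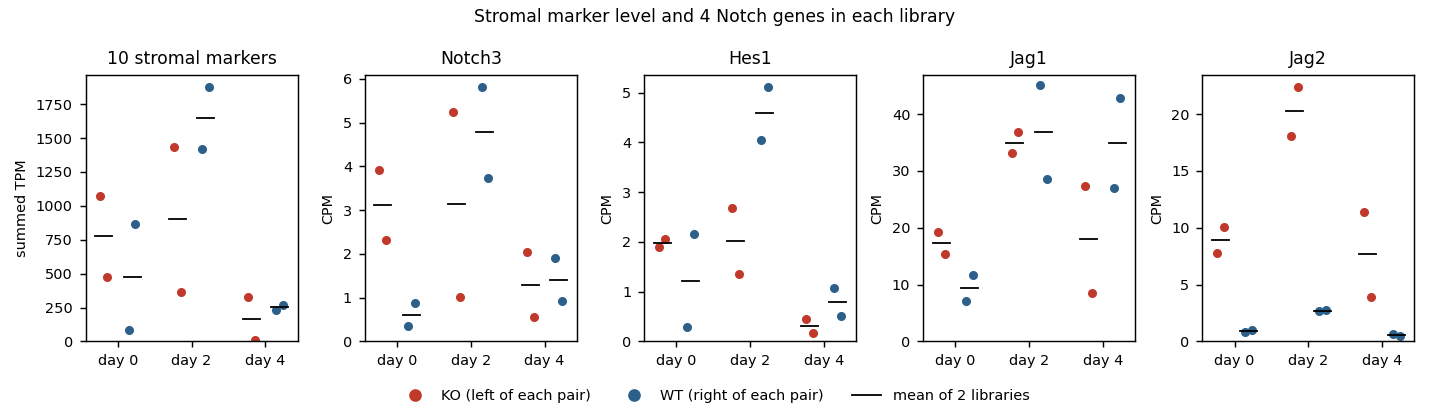
Summed TPM of 10 stromal markers (leftmost panel) and CPM of Notch3, Hes1, Jag1 and Jag2 (y axes) in each of the 12 libraries by day (x axis); red points are KO, blue points WT, and the line is the mean of 2 libraries. The stromal sum at day 2 is 1436 and 367 TPM in KO and 1421 and 1875 TPM in WT, and the KO points of Jag2 lie above its WT points.

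Jag1, the other Jagged ligand measured, moved with time in WT. In KO it was at 19.2 and 15.5 CPM at day 0, 33.1 and 36.8 CPM at day 2, and 27.3 and 8.60 CPM at day 4. In WT it was at 7.10 and 11.8 CPM at day 0, 45.1 and 28.5 CPM at day 2, and 27.0 and 42.9 CPM at day 4. WT libraries of days 2 and 4 lay above those of day 0, while in KO the day 4 libraries lay on both sides of those of day 0. In WT, Jag1 rose by a log2 fold change of 1.96 ± 0.53 to day 2 (adjusted p = 0.0394) and 1.89 ± 0.53 to day 4 (adjusted p = 0.0151), with edgeR. The day 2 call was lost with any 1 library left out (adjusted p from 0.0671 to 0.167), and the day 4 call without WT day 0 replicate 1 (0.091) or WT day 4 replicate 2 (0.0813). In KO the values were 1.01 ± 0.51 to day 2 (adjusted p = 0.313) and 0.05 ± 0.51 to day 4 (adjusted p = 0.941). In both genotypes the library with the higher stromal sum had the higher Jag1 at days 0 and 4 and the lower Jag1 at day 2. That sum in WT was 82.2 and 870 TPM at day 0, 1421 and 1875 TPM at day 2, and 236 and 267 TPM at day 4. The part of stromal cells in the Jag1 values was not tested.

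KO over WT in Jag1 was 0.88 ± 0.52, -0.07 ± 0.50 and -0.96 ± 0.51 at days 0, 2 and 4, none called. The change to day 4 in KO minus that in WT was -1.84 ± 0.73 (unadjusted p = 0.0356, adjusted p = 0.155). It rests on the KO day 4 libraries: without replicate 1 it was -2.90 (adjusted p = 0.00981) and without replicate 2 it was -1.23 (adjusted p = 0.249). KO over WT at day 4 was -2.02 without replicate 1 (adjusted p = 0.0105) and -0.36 without replicate 2 (adjusted p = 0.652). On the TPM scale, Jag2 was 32.7% to 45.7% of the sum of both Jagged genes in the 6 KO libraries, against 1.58% to 14.1% in the 6 WT libraries. The ranges did not overlap, and Jag1 was the larger part in all 12 libraries. None of the 5 Delta-type genes listed (Dll1, Dll3, Dll4, Dlk1 and Dlk2) passed the filter on low counts.

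Rbpj, through which the receptors act at DNA, was at 185 and 130 CPM in KO and 156 and 139 CPM in WT at day 0. At day 2 it was at 163 and 128 CPM in KO and 178 and 160 CPM in WT, and at day 4 at 244 and 212 CPM in KO and 185 and 159 CPM in WT. Both KO libraries of day 4 lay above the other KO libraries and above the WT libraries of that day. In KO it rose by a log2 fold change of 0.53 ± 0.19 from day 0 to day 4 (adjusted p = 0.0496) and 0.65 ± 0.19 from day 2 (adjusted p = 0.024), with edgeR. Leaving out KO day 4 replicate 1 ended both calls (adjusted p = 0.168 and 0.0923). The call from day 0 was also lost without KO day 0 replicate 2 (0.288) or KO day 4 replicate 2 (0.0515), and the call from day 2 without KO day 2 replicate 2 (0.14). In WT the value from day 0 to day 4 was 0.22 ± 0.19 (adjusted p = 0.341). KO over WT at day 4 was 0.41 ± 0.19 (adjusted p = 0.151), and the difference between the genotypes' changes to day 4 was 0.31 ± 0.27 (adjusted p = 0.516).

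The target genes were barely detected. Hes1 held 32 and 32 counts in KO and 5 and 39 counts in WT at day 0, 43 and 20 counts in KO and 73 and 85 counts in WT at day 2, and 9 and 3 counts in KO and 21 and 10 counts in WT at day 4. The KO libraries lay below the WT libraries at days 2 and 4 and overlapped with them at day 0. KO over WT was 0.69 ± 0.83, -1.17 ± 0.82 and -1.31 ± 0.93 on the log2 scale at days 0, 2 and 4, none called. Hes1 was called lower at day 4 than at day 2 in KO (-2.66 ± 0.92, adjusted p = 0.0457) and in WT (-2.51 ± 0.86, adjusted p = 0.037), and lower than at day 0 in KO (-2.62 ± 0.92, adjusted p = 0.0462). Each of these 3 calls was lost when any 1 of its libraries was left out, with adjusted p from 0.0615 to 0.187. The stromal sum at day 4 was low as well, at 326 and 8.84 TPM in KO and 236 and 267 TPM in WT, and within each group but KO day 0 and WT day 4 the library with the higher sum had the higher Hes1. Its part in the Hes1 values was not tested.

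Hey1 held 0 and 0 counts in KO and 4 and 0 counts in WT at day 0, 0 and 2 counts in KO and 17 and 6 counts in WT at day 2, and 1 and 1 counts in KO and 5 and 14 counts in WT at day 4. It passed the filter through its WT libraries, so no fold is given. The edgeR test called no Hey1 comparison, with an adjusted p of 0.238 for KO against WT at day 2 and 0.18 at day 4.

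Dtx4 encodes a ubiquitin ligase known to act on Notch trafficking. In KO it was at 180 and 166 CPM at day 0, 196 and 201 CPM at day 2, and 140 and 95.9 CPM at day 4. In WT it was at 171 and 120 CPM at day 0, 264 and 215 CPM at day 2, and 225 and 212 CPM at day 4. At day 4 the KO libraries lay below the WT libraries and below the KO libraries of the earlier days. KO over WT at day 4 was -0.89 ± 0.21 (adjusted p = 0.0176), after 0.25 ± 0.21 at day 0 and -0.27 ± 0.21 at day 2, neither called, with edgeR. The day 4 call was lost without KO replicate 2 (adjusted p = 0.0929), WT replicate 1 (0.0818) or WT replicate 2 (0.0733), with log2 fold changes of -0.64 to -1.19 over all 4 left-out libraries.

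In WT, Dtx4 rose by 0.72 ± 0.21 to day 2 (adjusted p = 0.0499) and by 0.59 ± 0.21 to day 4 (adjusted p = 0.0414) from day 0. In KO it fell by 0.75 ± 0.21 from day 2 to day 4 (adjusted p = 0.021). The first of these was lost without WT day 0 replicate 2 (adjusted p = 0.159) or either WT day 2 library (0.212 and 0.103). The next was lost without WT day 0 replicate 2 (0.215) or either WT day 4 library (0.142 and 0.0949), and the KO call without KO day 2 replicate 1 (0.0672), KO day 2 replicate 2 (0.0765) or KO day 4 replicate 2 (0.0897). The change from day 0 to day 4 in KO minus that in WT was -1.14 ± 0.30, with an adjusted p of 0.0516, so edgeR did not call it. It is the Notch gene nearest to a call in that test, and 8 of the 17 alternatives called it, with adjusted p from 0.00805 to 0.159 over all 17.

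Mpeg1, a macrophage gene listed beside Dtx4 in RefSeq, was higher in KO at day 4 by 4.09 ± 0.36 (log2, adjusted p = 0.000486), the opposite direction to Dtx4. No Notch gene was called by edgeR in the test of whether the change over time differed between KO and WT. To day 2 the count of unadjusted p under 0.05 was 2 of 10 (Notch2 and Notch3), 0.00783% of all tested genes were called, and DESeq2 and limma-voom also called none of the 10. To day 4 it was 3 of 10 (Notch2, Jag1 and Dtx4), against 8.56% of all tested genes called (5.75% with a positive difference, 2.82% with a negative one), and DESeq2 and limma-voom each called 1 of the 10, Dtx4.

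Other genes of the pathway were read from lists of 64 genes, of which 50 were tested. At day 0, Lfng was called higher in KO and Itch lower (2% each way, against 0.767% and 0.814% of all tested genes). At day 2, 3 were higher (Maml2, Crebbp and Dtx3l, 6%) and 1 lower (Hdac2, 2%), against 3.09% and 1.42% of all tested genes. At day 4, 15 of 50 were higher (30%) and 5 lower (10%), against 14.5% and 11.1% of all tested genes. The median log2 fold change of the 50 genes at day 4 was 0.20, against -0.03 over all tested genes. Of the 20 calls at day 4, 8 held with any 1 library of that day left out: Adam10, Adam17, Dtx3, Dtx3l, Lfng, Maml2, Mib2 and Neurl3. None of the calls at day 0 or day 2 did. In a fit of the 4 libraries of day 4 alone, none of the 50 was called, but that fit called only 5 of all tested genes.

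**Figure D4:**
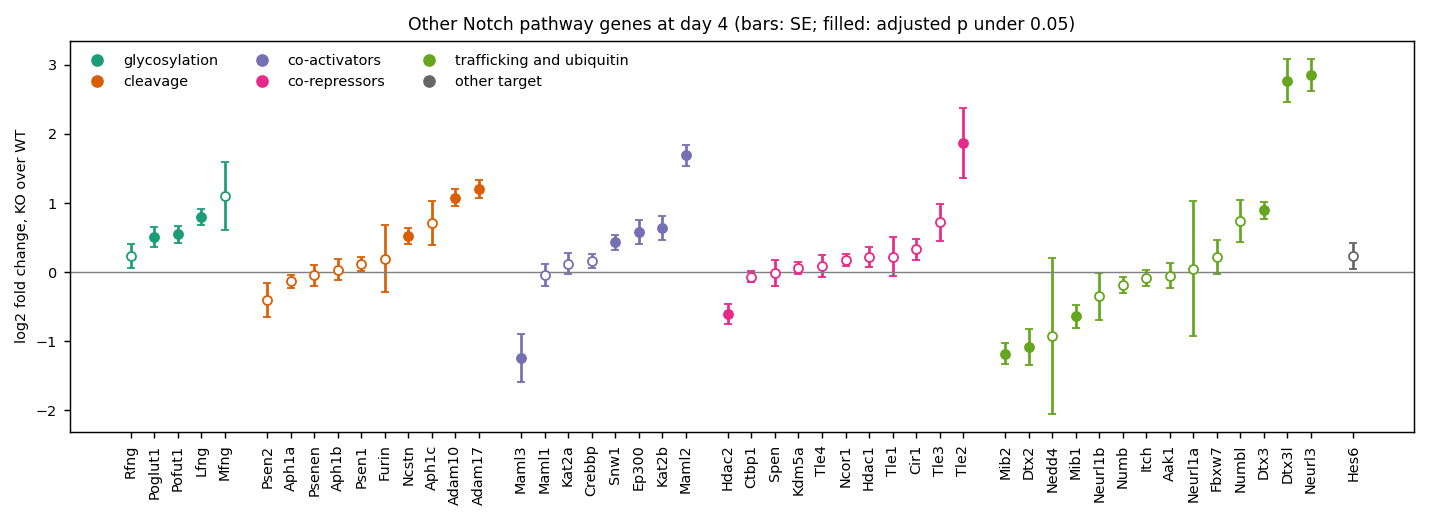
Log2 fold change of KO over WT at day 4 (y axis) for 49 of the 50 tested genes of the Notch pathway lists (x axis), coloured by role; bars are the SE and filled points have an adjusted p under 0.05. Filled points above 0 number 14, with Neurl3 at 2.86 and Dtx3l at 2.77 the highest, and filled points below 0 number 5.

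Among the cleavage genes, 3 of 10 were called higher in KO at day 4 and none lower, against 14.5% and 11.1% of all tested genes. Adam10, the protease that makes the activating cut, was at 411 and 520 CPM in KO, against 221 and 221 CPM in WT (log2 fold change 1.08 ± 0.12, adjusted p = 0.000973). Adam17, a related protease, was at 383 and 430 CPM in KO, against 197 and 156 CPM in WT (1.20 ± 0.14, adjusted p = 0.000996). In both genes the KO libraries lay well above the WT libraries of that day. Ncstn, a gamma-secretase subunit, was at 0.52 ± 0.12 (adjusted p = 0.0149, lost with 1 library left out).

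Among 5 genes for enzymes that add sugars to the receptors, 3 were called higher in KO at day 4, against 14.5% of all tested genes. Lfng, a Fringe glycosyltransferase that alters how receptors respond to Jagged and Delta ligands, was at 160 and 148 CPM in KO, against 93.6 and 83.4 CPM in WT at day 4 (0.80 ± 0.12, adjusted p = 0.00243). It was also higher in KO at day 0 (0.62 ± 0.12, adjusted p = 0.0434, lost with any 1 library left out). Pofut1 and Poglut1, which add fucose and glucose, were at 0.55 ± 0.12 and 0.51 ± 0.14 at day 4 (adjusted p = 0.0147 and 0.0281), and each call was lost with 1 of the libraries left out.

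Among 8 co-activator genes, 4 were called higher in KO at day 4 and 1 lower, against 14.5% and 11.1% of all tested genes. Maml2, a Mastermind-like co-activator, was at 15.7 and 17.6 CPM in KO, against 4.58 and 5.74 CPM in WT at day 4 (1.69 ± 0.15, adjusted p = 0.000486). At day 2 it was at 44.5 and 46.1 CPM in KO, against 21.2 and 19.7 CPM in WT (1.15 ± 0.14, adjusted p = 0.0135), with no overlap between genotypes at either day. The day 2 call was lost with 1 library left out (adjusted p up to 0.124). Maml3 went the other way at day 4 (-1.24 ± 0.35, adjusted p = 0.0324), from levels of 2.33 to 8.87 CPM at that day, and its call was lost with 1 library left out. Ep300, Kat2b and Snw1 were called higher by 0.58, 0.64 and 0.43, each call lost with 1 library left out.

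Among the co-repressor genes, Tle2 (1.87 ± 0.50) was called higher in KO at day 4 and the histone deacetylase gene Hdac2 lower (-0.61 ± 0.15). Both calls were lost with 1 library left out, and Tle2 was at 1.38 and 3.55 CPM in KO, against 0.823 and 0.513 CPM in WT. On the log2(TPM + 1) scale the Tle2 difference was 0.14 and was not called.

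Among 14 tested trafficking and ubiquitin genes, 3 were called higher in KO at day 4 and 3 lower, against 14.5% and 11.1% of all tested genes. Neurl3, which encodes a Neuralized-type ubiquitin ligase, was at 95.1 and 153 CPM in KO, against 17.5 and 16.6 CPM in WT (2.86 ± 0.23, adjusted p = 0.000392). Dtx3l, a Deltex relative, was at 186 and 357 CPM in KO, against 37.9 and 41.7 CPM in WT (2.77 ± 0.31, adjusted p = 0.0011). These were the largest differences among the 50 genes, and neither overlapped between genotypes. Mib2, a Mindbomb ligase that acts on Notch ligands, was lower, at 24.3 and 18.5 CPM in KO, against 46.4 and 50.8 CPM in WT (-1.18 ± 0.16, adjusted p = 0.00164). Its relative Mib1 was at -0.64 ± 0.17 (adjusted p = 0.0229), a call lost with 1 library left out. Within the Deltex family, Dtx3 (0.90 ± 0.12) and Dtx3l were higher and Dtx2 (-1.08 ± 0.26) and Dtx4 lower in KO at day 4, and Dtx1 was too low to test. Of 8 other target genes listed, Hes6 alone was tested, at 0.24 ± 0.19 in KO over WT at day 4 (adjusted p = 0.395), and Hes2, Hes3, Hes5, Hes7, Hey2, Heyl and Nrarp did not pass the filter.

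Most called pathway genes were lower at day 4 than at day 0. In KO, 6 of 50 were called higher and 21 lower, against 23.3% and 21.3% of all tested genes. In WT, 6 were called higher and 29 lower, against 29.1% and 27.6% of all tested genes. Of the cleavage genes, 5 of 10 were lower in KO and 8 of 10 in WT. Aph1c, a gamma-secretase subunit, was at -2.62 ± 0.33 in KO (adjusted p = 0.000463) and -3.37 ± 0.34 in WT (adjusted p = 7.34e-05). Aph1b was at -1.30 ± 0.15 in KO and -1.31 ± 0.15 in WT. Adam17 rose in KO by 0.54 ± 0.13 (adjusted p = 0.0105) and fell in WT by 0.81 ± 0.13 (adjusted p = 0.000896). Maml2 fell in both, with log2 fold changes of -1.43 ± 0.14 in KO and -2.59 ± 0.15 in WT. Neurl3 (-1.72 ± 0.22 in KO, -4.61 ± 0.25 in WT) and Dtx3 (-2.61 ± 0.12 in KO, -2.93 ± 0.13 in WT) fell too, while Hdac2 rose, by 1.06 ± 0.15 in KO and 1.70 ± 0.15 in WT.

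The genes whose level ran most like each Notch gene were ranked by Pearson's r of log2(TPM + 1) over the 12 libraries, for the 6 Notch genes with a mean of at least 5 CPM (not Notch3, Notch4, Hes1 or Hey1), among 9832 tested genes with a mean of at least 5 CPM, as a description in which genotype, day and library are shared by all points. For Notch1 these were Cib2 (r = 0.983), Ctsh and Gab1, and for Notch2 they included Cbl (r = 0.994) and Il6ra. Far down the ranking r was still 0.819 for Notch1 and 0.86 for Notch2, so a high r with either receptor was common. Jag1 ran most like Midn (r = 0.943), Fosl2 and Slc39a14, and Jag2 most like Cdk17 (r = 0.949), Havcr2 and Vps54. For Rbpj the list was Ttc13 (r = 0.917), BC017158 and Bcl7a, and for Dtx4 it was Dnajc3 (r = 0.945), Fbxo30 and Uhrf1bp1l.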

How the data were processed

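Of the 37 samples, the 12 RNA-seq libraries were used, with groups, days and replicate numbers taken from the labels (the series' design text speaks of osteoblasts, the labels of osteoclasts). The authors deposited expected counts, which are whole numbers and were used unchanged, and TPM values, per the file headers. The submitters' processing notes name Trim Galore 0.6.1, STAR 2.7.3a and RSEM 1.3.1 among the tools and both mm9 and mm10 as builds. Gene models and strand setting are not given in the sources used here, so reads of overlapping or antisense genes cannot be told apart.

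A single edgeR 4.0.16 model in R 4.3.3 covered the 12 libraries (TMM, filterByExpr with a minimum of 10 counts, a mean for each group, robust two-sided quasi-likelihood F test). P-values were adjusted by Benjamini-Hochberg over 12774 genes and called under 0.05. The SE is the absolute log2 fold change over the square root of F. Common biological variation (BCV) was 0.261, with a median of 2.66 prior degrees of freedom. The fit was run on counts simulated with its own dispersion estimates and independent libraries, to check the sign and size of fold changes. That run cannot show how the p-values behave in the real libraries.

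The 10 genes, the pathway and marker lists and the tests were chosen with earlier results of these data known. The rule for other named genes took all pathway genes called in KO against WT, up to 4 of each list with the smallest adjusted p for time comparisons, Arid1a, and the 3 genes most like each Notch gene with a mean of at least 5 CPM. Markers and the genes beside Jag2 and Dtx4 in RefSeq were named outside that rule, with their values known. Some genes that the rule takes are not reported here. The gene table of RefSeq held 10 of the 10 symbols. Spreadsheet dates stood in place of 26 gene names. Marker lists covered osteoclasts, macrophages, stromal, endothelial and smooth muscle cells, T and NK cells, B cells, dendritic cells and neutrophils. Sums were at most 34.1 TPM for T and NK, 4.15 TPM for B and 36.4 TPM for dendritic markers, and the neutrophil sum was at most 10.7 TPM apart from 127 TPM in WT day 0 replicate 1. The macrophage sum was 4240 to 13479 TPM in KO and 3605 to 72877 TPM in WT, of which Lyz2 made up 1199 to 59431 TPM.

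Alternatives were DESeq2 size factors, no filter, a filter of at least 5 CPM, DESeq2 1.42.0, limma-voom (limma 3.58.1), limma on log2(TPM + 1) and on log2(TPM + 0.1), a fit of only the compared libraries, replicate blocks, and leaving out each library, whose partner was then assumed to vary like the other groups.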

Additional observations from a re-analysis of the deposited data

Results flagged for a closer look

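The change from day 0 to day 4 differed between KO and WT, by the test of that difference in edgeR, in 6 of the 50 other pathway genes. The change in KO minus the change in WT, on the log2 scale, was 0.64 ± 0.17 in Adam10 (adjusted p = 0.0496), the protease that makes the activating cut. It was 1.35 ± 0.19 in Adam17 (adjusted p = 0.00769), a related protease. It was 1.16 ± 0.20 in the co-activator gene Maml2 (adjusted p = 0.0147). Among the ubiquitin ligase genes it was 2.43 ± 0.42 in Dtx3l (adjusted p = 0.015), 2.89 ± 0.31 in Neurl3 (adjusted p = 0.00399) and -0.90 ± 0.22 in Mib2 (adjusted p = 0.0395). Of all tested genes, 8.56% were called in this test. The calls of Adam17 and Neurl3 held with any 1 of the 8 libraries left out, while the others were lost in at least 1 such fit, with adjusted p up to 0.159 in Adam10, 0.0739 in Dtx3l, 0.0766 in Maml2 and 0.143 in Mib2. The KO day 4 libraries, which differ from each other more than those of any other group, enter all 6 values. So do the WT day 0 libraries, which come next in that order.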

How the results depend on the processing

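Of 854 refits of the Notch genes' log2 fold changes, 705 kept their direction and side of the threshold, 109 lost the call, 29 gained it and 11 reversed. Of those of the other pathway genes' calls, 1093 held and 217 were lost. The falls of Notch1 and Notch2 from days 0 and 2 to day 4 held in every alternative run. The causes of the changes below were not tested, except that a fit of fewer libraries has fewer degrees of freedom.

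The number of Notch genes called was, for KO against WT at day 0, 0 with limma-voom and 0 with the libraries of the comparison alone (1 in the report). At day 2 it was 1 with either log2(TPM) scale (2 in the report), and at day 4 it was 0 with the libraries alone (3). For KO day 2 against day 0 it was 2 with the libraries alone (0). For KO day 4 against day 0 it was 3 on either TPM scale and 2 alone (5), and against day 2 it was 2 alone (6). For WT day 2 against day 0 it was 2 without a filter, 7 with DESeq2, 2 alone and 2 with the replicate block (4). In the test of differing change to day 4 it was 1 with the 5 CPM filter, DESeq2, limma-voom, either TPM scale and the replicate block (0). With each library left out the ranges were 0 to 0, 0 to 1 and 1 to 4 for KO against WT at days 0, 2 and 4, 2 to 4 for KO day 4 against day 0, 2 to 5 against day 2, 0 to 2 for WT day 2 against day 0, 2 to 3 for WT day 4 against day 0, 3 to 3 against day 2, and 0 to 3 for the differing change to day 4.

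Other pathway genes called for KO against WT at day 0 were 1 without a filter, 5 with DESeq2, 1 on either TPM scale, 0 alone and 0 with the replicate block (2 in the report); at day 2 they were 12 with DESeq2 (4), at day 4 they were 0 alone (20), and for the differing change they were 10 with DESeq2 and 2 alone (6). With each library left out they ranged from 0 to 0, 0 to 1 and 9 to 22 for KO against WT, and from 2 to 17 for the differing change.

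Reversed values were Notch1 at day 4 on log2(TPM + 1) (-0.012) and Notch4 at day 4 with limma-voom (-0.13), both KO over WT. With 1 library left out, values that changed sign ranged, for KO over WT, from -0.15 to 2.74 in Hes1 at day 0, -0.37 to 0.28 in Jag1 at day 2 (0.00 in another), -2.22 to 0.14 in Notch3 at day 2 and -1.34 to 0.53 at day 4 (0.50 in another), -1.86 to 1.44 in Notch4 at day 4 and -0.17 to 0.32 in Rbpj at day 0, and from -0.22 to 3.07 in Notch4 for KO day 4 against day 2.

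Over all genes, calls for KO against WT were 202, 577 and 3271 at days 0, 2 and 4, and 25 to 749, 495 to 1636 and 5 to 3955 in the alternatives, the low end at days 0 and 4 being the libraries of the comparison alone. With 1 library left out they fell to 2, 1 and 1131. The log2 difference of replicate 1 minus replicate 2 was taken for each tested gene in each group and correlated between groups. Pearson's r of these differences between days was 0.60, 0.43 and 0.46 in KO and 0.22, 0.11 and 0.30 in WT. Between genotypes at day 0 it was -0.36. The labels give no pairing, so the numbers may be only names. With the replicate block 1, 2 and 4 Notch genes were called for KO against WT. Chosen after seeing the data, a block with crossed numbers at day 0 called 1 Notch gene and 302 genes in all, and a block within each genotype called 0, 6 and 6 Notch genes in KO and 5, 5 and 5 in WT over the time comparisons. Depth limits Hey1, Hes1, Notch3, WT Jag2 and, most of all at day 0, Notch4, which hold few counts.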
